A study of Homo sapiens with 16 samples.

Results

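Receptor genes of myeloid cells, 10 of the 60676 genes in the count table, were followed in THP-1 cells. They were taken by name from the leukocyte immunoglobulin-like receptor (LILR) family and from related receptors: LILRB1, LILRB2, LILRB3, LILRB4, LILRA2, LILRA5, LILRA6, LAIR1, SIRPA and CD33. The name inhibitory receptors fits the 4 LILRB genes, LAIR1, SIRPA and CD33. The 3 LILRA genes encode activating relatives.

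Inhibitory receptors of this kind sit on the surface of monocytes and macrophages and carry tyrosine motifs (ITIMs) in their tails. When the receptor meets its ligand the motifs are phosphorylated by kinases of the SRC family and recruit tyrosine phosphatases, which dampen activating signals. The LILRA receptors have short tails and signal through an adaptor with an activating motif (ITAM), the FCER1G chain. LILRB1 and LILRB2 bind class I MHC molecules, LILRB4 is a surface marker of monocytic leukaemia cells, LAIR1 binds collagens, SIRPA binds CD47 on other cells and restrains phagocytosis, and CD33 binds sialic acids and is a drug target in acute myeloid leukaemia.

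THP-1 is a human acute monocytic leukaemia line that takes on macrophage features when it is given the phorbol ester PMA. All cells used here carried a lentiviral short hairpin and had been selected with puromycin: a control hairpin (shNC) or a hairpin against UHRF1, DNMT1 or DNMT3B (shUHRF1, shDNMT1, shDNMT3B). Whether each line was a pool or a clone is not given in the sources used here. Each line was kept for 48 h with DMSO, the solvent, or with 100 ng/ml PMA, and its polyadenylated RNA was sequenced in 2 libraries per group, which makes 16 libraries in 8 groups. The questions were which genes PMA changes and whether lowering UHRF1, DNMT1 or DNMT3B, which maintain or set DNA methylation, alters that response.

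Libraries held 13883556 to 23151864 counts. The transcripts of the hairpin targets did not pass the test as lower in their own lines. UHRF1 was 87.1 and 123 CPM (the count scaled to a fixed library total after TMM normalisation) in shNC and 72.0 and 91.2 CPM in shUHRF1 cells in DMSO, a log2 fold change of -0.36 (adjusted p = 0.605). DNMT1 in shDNMT1 cells (log2 fold change -0.25, adjusted p = 0.787) and DNMT3B in shDNMT3B cells (-0.48, adjusted p = 0.212) did not pass the test in DMSO either, and in PMA the 3 targets stood at 0.87, 0.45 and 1.06 above shNC on the log2 scale, with adjusted p = 0.129, 0.376 and 0.00688 (0.000375 and 0.00418 for UHRF1 and DNMT1 with the replicate number as a block). The study also examined target protein levels by Western blot, which are not analysed here. Lines are named by their labels, and a difference between them is a difference between the cells labelled so. The summed level of 10 monocyte and macrophage markers was 496 to 678 CPM in DMSO and 2363 to 3262 CPM in PMA. Single markers went both ways. In shNC cells CD14, CD68, CSF1R, ITGAM, SPI1 and CD163 rose with PMA. LYZ, FCGR1A and MARCO fell (log2 -1.37, -2.38 and -1.75, adjusted p = 0.0005, 0.00307 and 0.00532). Of other cell types, 5 neutrophil markers summed to 815 to 1799 CPM in DMSO, most of it ELANE, and to 73.3 to 275 CPM in PMA. Sums also moved with PMA for 5 T cell markers (0.156 to 0.85 CPM in DMSO and 11.8 to 20.6 CPM in PMA, mostly TRAC, with CD3D at 0 throughout). So did those of 5 platelet markers (0.631 to 2.29 CPM and 3.49 to 11.8 CPM). Of these, PPBP was higher in shNC PMA (log2 6.38). ITGA2B and GP9 were lower without passing (-1.71 and -4.02, adjusted p = 0.0628 and 0.134). The 5 B cell markers summed to 6.41 to 32.8 CPM, with the 2 highest sums in shDNMT1 PMA (26.2 and 32.8 CPM), and 5 NK cell markers to 34.6 to 185 CPM, with the 2 highest in shDNMT3B PMA (185 and 158 CPM, at most 76.7 CPM elsewhere). Red cell markers reached 489 CPM in shNC DMSO replicate 1 but at most 2.23 CPM elsewhere. Replicate 1 libraries also had more mitochondrial counts than replicate 2 libraries (24.4 to 29.0% against 9.86 to 14.5% in DMSO, 7.71 to 19.5% against 3.92 to 9.35% in PMA). The share was lower in PMA than in DMSO within each line and replicate, and highest among the PMA libraries of each replicate in shDNMT3B (19.5 and 9.35%, where the others had at most 10.3 and 4.86%). The part of these values in the results was not tested. In bulk RNA, fewer cells of a type and less RNA per cell cannot be told apart.

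Of the 10 genes, 9 lie on chromosome 19. On hg38 with GENCODE 44, 8 of them are packed in the leukocyte receptor complex: LILRB3 (54216278 to 54223506), LILRA6 (54236592 to 54242791), LILRB2 (54273812 to 54281184), LILRA5 (54307070 to 54313166) and LAIR1 (54351384 to 54370558) on the minus strand, and LILRA2 (54572920 to 54590287), LILRB1 (54617158 to 54638022) and LILRB4 (54643889 to 54670359) on the plus strand. CD33 lies on the plus strand of the same arm at 51225064 to 51243860 and SIRPA on chromosome 20 at 1894167 to 1940592, also on the plus strand. The family is a set of near copies, so the share of each transcript that is identical to another gene over a read length of 150 bases was counted. It was 12.3% for LILRA2, nearly all of it with the overlapping gene model ENSG00000269271, 9.76% for LILRB4 with the overlapping VN1R105P, 5.95% for LILRB3 (2.34% with LILRA6), 3.37% for LILRA6 (with LILRB3), 3.15% for SIRPA (with SIRPB1) and 1.27% or less for the other 5 genes. Only exact matches were counted, so counts of LILRB3 and LILRA6 are uncertain to at least that extent. LILRB1-AS1 on the other strand covers 6.45% of LILRB1 exon sequence, and the strand setting of the counting is not given in the sources used here.

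Since the hairpins were aimed at the DNA methylation machinery, the promoters of 4 LILR genes that PMA moved in opposite directions are shown (LILRB1 and LILRB3 rose in 3 or 4 lines, LILRB2 and LILRA2 fell in 2 and 4), 250 bases before to 50 bases after the start (RefSeq, GRCh38.p14), with each CG, the dinucleotide that is methylated, in capitals. LILRB1 (chr19:54630234-54630533, plus strand), LILRB2 (chr19:54281061-54281360, minus strand), LILRB3 (chr19:54222958-54223257, minus strand) and LILRA2 (chr19:54573540-54573839, plus strand) read as follows.
LILRB1: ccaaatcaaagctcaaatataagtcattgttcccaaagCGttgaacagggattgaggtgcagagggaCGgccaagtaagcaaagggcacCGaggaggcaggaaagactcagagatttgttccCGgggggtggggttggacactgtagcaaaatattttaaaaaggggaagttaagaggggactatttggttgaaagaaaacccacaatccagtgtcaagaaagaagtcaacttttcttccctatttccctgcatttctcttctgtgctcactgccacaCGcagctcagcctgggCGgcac
LILRB2: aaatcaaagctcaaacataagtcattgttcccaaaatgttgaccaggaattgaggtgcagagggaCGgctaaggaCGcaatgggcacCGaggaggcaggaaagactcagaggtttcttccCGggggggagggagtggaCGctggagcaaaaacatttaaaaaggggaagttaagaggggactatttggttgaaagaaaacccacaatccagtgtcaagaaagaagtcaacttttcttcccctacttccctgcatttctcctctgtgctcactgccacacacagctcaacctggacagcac
LILRB3: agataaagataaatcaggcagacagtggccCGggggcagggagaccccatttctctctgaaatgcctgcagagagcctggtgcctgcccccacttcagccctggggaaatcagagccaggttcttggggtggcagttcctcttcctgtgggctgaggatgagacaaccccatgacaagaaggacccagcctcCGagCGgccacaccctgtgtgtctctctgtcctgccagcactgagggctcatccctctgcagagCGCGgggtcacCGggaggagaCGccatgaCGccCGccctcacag
LILRA2: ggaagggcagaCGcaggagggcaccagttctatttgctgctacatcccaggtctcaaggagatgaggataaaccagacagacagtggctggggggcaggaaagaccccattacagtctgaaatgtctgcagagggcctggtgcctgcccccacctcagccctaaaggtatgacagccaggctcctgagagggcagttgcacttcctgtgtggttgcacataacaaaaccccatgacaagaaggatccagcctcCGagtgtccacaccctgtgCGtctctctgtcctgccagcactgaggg

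These promoters hold fewer CG than the median of 14 over 35116 RefSeq promoters of 300 bases, of which 96.0% hold at least 1. LILRB3 has 9, more than 41.6% of promoters, LILRB1 has 6 (33.7%), LILRB2 has 5 (29.6%) and LILRA2 has 3 (18.2%). LILRB1 and LILRB2 are 91.6% identical over 298 aligned bases, and LILRB3 and LILRA2 are 84.1% identical over 239. An entry was found for 8 of the 10 genes, with 2 to 10 CG each, and none for LILRA6 and SIRPA. Methylation at these bases was not analysed here.

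Per kb of exon, which allows genes to be compared, LAIR1 led the receptors of untreated shNC cells. It made up 31.0% of the summed level of the 10 genes, SIRPA 22.9%, LILRA2 20.1%, LILRB4 17.1% and CD33 6.0%, and LILRB1 and LILRB2 were at 1.01% and 1.84%. LILRA6 had no count in the DMSO libraries and LILRB3 and LILRA5 had at most 0.04% of the sum in shNC. After PMA the make-up of shNC cells was another: SIRPA took 50.3%, LAIR1 22.8%, LILRB4 17.0% and CD33 4.35%, and LILRA2 was left with 0.587%. The sum itself was 75.0 CPM per kb in both shNC DMSO libraries and 94.3 and 80.3 CPM per kb in PMA.

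**Figure D1:**
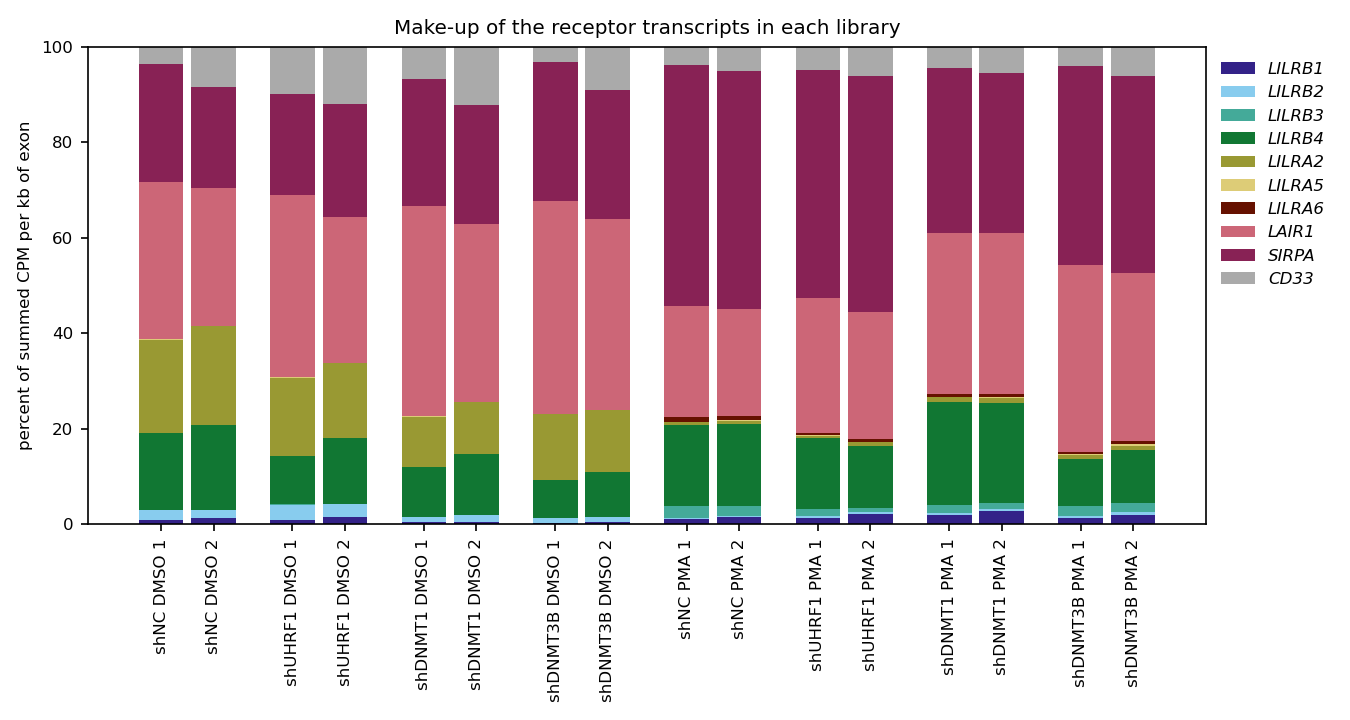
Each bar is 1 of the 16 libraries and shows the share of each receptor gene, in percent, in the summed CPM per kb of exon of the 10 genes. LILRA2 takes 20.1% in shNC DMSO and 0.587% in shNC PMA, while SIRPA goes from 22.9% to 50.3%.

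In the cells labelled shDNMT1 the PMA make-up had SIRPA and LAIR1 side by side, at 34.1% and 33.8%, with LILRB4 at 21.3%. The sum was highest there, at 129.9 and 104.0 CPM per kb. In shDNMT3B cells under PMA SIRPA took 41.5%, LAIR1 37.3% and LILRB4 10.5%. CD33 stayed between 4.35% and 4.99% in these 3 PMA groups.

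**Figure D2:**
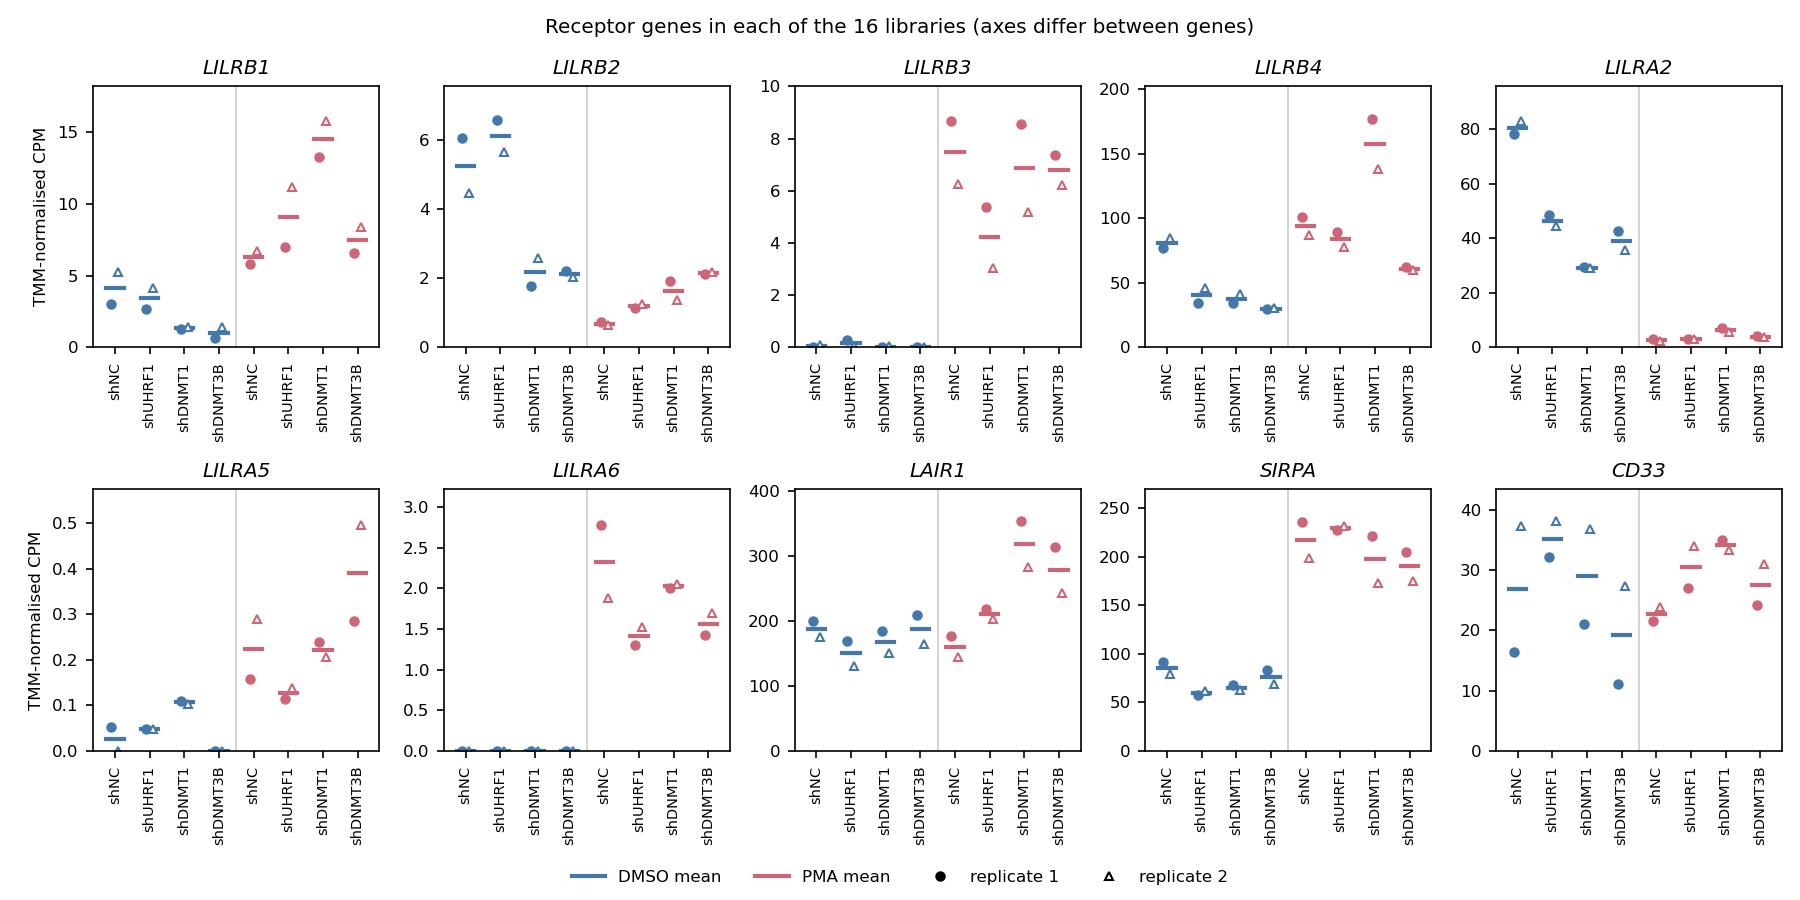
Each panel is 1 receptor gene and each point 1 library, in TMM-normalised CPM on an axis of its own, by line and treatment, with horizontal bars at the group means. LILRB3 and LILRA6 are near or at 0 in the DMSO libraries and above it in the PMA libraries, and LILRA2 runs the other way, from 78.2 and 83.1 CPM in shNC DMSO to 3.10 and 2.38 CPM in shNC PMA.

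The first comparison asks what PMA does to these receptors in control cells. LILRA2 and LILRB2 fell, SIRPA rose, and LILRB3 and LILRA6 went from near or at 0 to a few CPM, while LILRB1, LILRB4, LAIR1 and CD33 did not pass the test. Calls are at an adjusted p under 0.05 in edgeR's quasi-likelihood test over 16503 genes with Benjamini-Hochberg adjustment, and errors of log2 fold changes are SE. Of 9 tested receptors 3 rose and 2 fell. Over all genes tested 54.4% were called, 28.4% up and 26% down, so a call as such sets no receptor apart in this comparison. LILRB3 and LILRA6 passed the filter on low counts only through the PMA libraries and had to differ. Of the other 7 genes 1 rose and 2 fell, and their median log2 fold change was -0.22, against -0.005 over all genes. LILRA5 stayed at 0 to 7 counts per library and was not tested. P-values here rest on the spread between the 2 libraries of a group, pooled over all 8 groups. Nothing states that these libraries came from separate cultures. Without the block this spread includes the difference between replicates 1 and 2.

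Among the inhibitory LILR genes, LILRB2 had 6.05 and 4.46 CPM in shNC DMSO and 0.736 and 0.650 CPM in shNC PMA. No PMA library came near a DMSO library, and the fall was 7.48-fold (log2 -2.90 ± 0.31, adjusted p = 5.57e-06). LILRB3 had 0 and 2 counts in DMSO and 8.67 and 6.28 CPM in PMA. Over the group the PMA level was 145 times that in DMSO, with a 95% counting interval of 39.7 to 1203. Such intervals cover counting error only. For PMA against DMSO no p-value is given for LILRB3 or LILRA6, which passed the filter only through the PMA libraries.

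LILRB1 and LILRB4 moved little in control cells. LILRB1 read 3.05 and 5.26 CPM in DMSO and 5.83 and 6.71 CPM in PMA, so that both PMA libraries lay above both DMSO libraries, with a log2 fold change of 0.59 ± 0.36 (adjusted p = 0.179). With the replicate number as a block it passed (0.63, adjusted p = 0.0173), where 67.1% of all genes did. LILRB4, the most abundant LILRB gene per kb in these cells, had 77.3 and 84.8 CPM in DMSO and 101 and 87.5 CPM in PMA (0.22, 95% interval -0.17 to 0.60, adjusted p = 0.317).

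Of the activating genes, LILRA2, whose product senses microbially cleaved antibodies, had the largest fall of the 9 tested genes. It had 78.2 and 83.1 CPM in DMSO and 3.10 and 2.38 CPM in PMA, which is 29.1-fold lower (log2 -4.86 ± 0.20, adjusted p = 1.58e-09). LILRA6, whose outer part closely resembles that of LILRB3, had no count in any of the 8 DMSO libraries and 2.79 and 1.88 CPM in shNC PMA. With DMSO set to a floor of 3 counts per group, it was at least 30.3-fold higher. LILRA5 had 1 and 0 counts in DMSO and 3 and 4 in PMA, a ratio of 8.05 with a counting interval of 1.03 to 363.

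Summed per kb, inhibitory and activating LILR transcripts were about level in DMSO and far apart in PMA. The LILRB sum of shNC cells was 14.4 and 15.6 CPM per kb in DMSO and 19.5 and 16.9 in PMA. The LILRA sum was 14.6 and 15.5 CPM per kb in DMSO and 1.69 and 1.30 in PMA. The ratio of the sums lay between 0.671 and 1.35 in the 8 DMSO libraries and between 8.28 and 15.7 in the 8 PMA libraries. It is a description of these sums, in which LILRB4 and LILRA2 hold the largest parts.

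**Figure D3:**
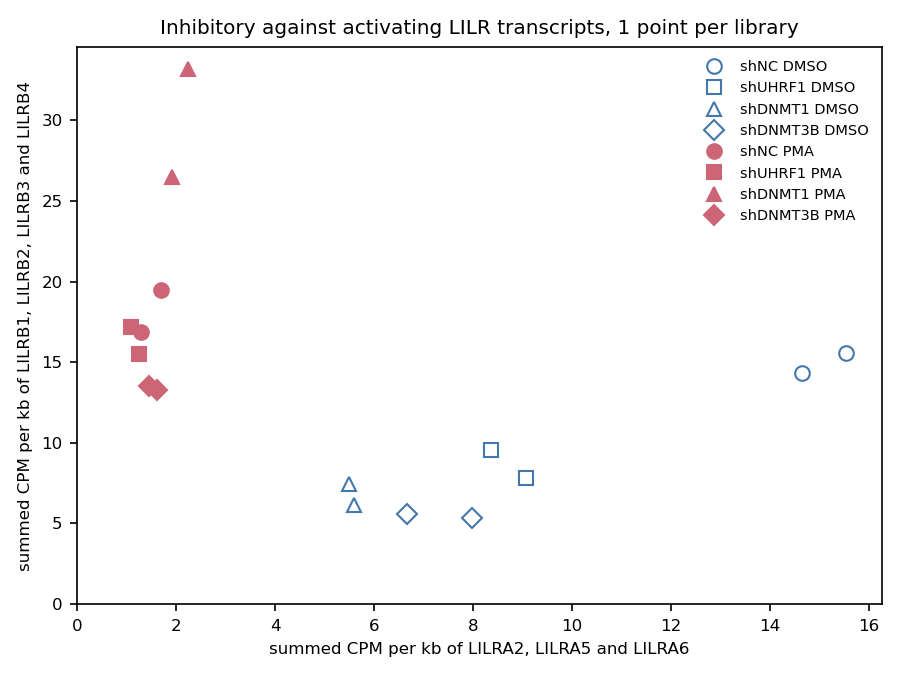
Each point is 1 library, with the summed CPM per kb of LILRA2, LILRA5 and LILRA6 on the x axis and of the 4 LILRB genes on the y axis. Open DMSO points lie to the right, with ratios of 0.671 to 1.35, and filled PMA points at the left edge, with the shDNMT1 libraries on top at 33.2 and 26.5 CPM per kb of LILRB.

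SIRPA had 91.4 and 79.2 CPM in shNC DMSO and 236 and 199 CPM in shNC PMA. It rose 2.55-fold (log2 1.35 ± 0.18, adjusted p = 3.14e-05) with no overlap between the groups. LAIR1 overlapped, with 200.2 and 175 CPM in DMSO and 177 and 145 CPM in PMA (-0.22, 95% interval -0.68 to 0.24, adjusted p = 0.391). CD33 had 16.4 and 37.4 CPM in DMSO, a wide spread, and 21.6 and 23.8 CPM in PMA. Its log2 fold change was -0.24 with an interval of -1.15 to 0.66 (adjusted p = 0.643).

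The same comparison within each of the other lines had more receptors called up. In shUHRF1 cells 5 of 9 rose and 2 fell, where 54.9% of all genes were called (29.4% up and 25.5% down). In shDNMT1 cells 6 rose and 1 fell (52.7% of all genes, 28.6% up and 24.1% down), and in shDNMT3B cells 6 rose and 1 fell (44.9%, 25.2% up and 19.7% down). LILRB3 and LILRA6 had to differ in these lines as well. Without them, 3 of 7 rose and 2 fell in shUHRF1 cells, and 4 rose and 1 fell in each of shDNMT1 and shDNMT3B cells. The medians of these 7 were 0.49, 0.93 and 0.57 on the log2 scale, against -0.005, 0.006 and 0.02 over all genes. LILRB3, LILRA6 and SIRPA rose and LILRA2 fell in each of the 4 lines.

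LILRB1 rose in all 3 of these lines. In shDNMT1 cells it had 1.30 and 1.40 CPM in DMSO and 13.3 and 15.8 CPM in PMA, a 10.7-fold rise (log2 3.42 ± 0.39, adjusted p = 1.15e-05). In shDNMT3B cells it had 0.634 and 1.43 CPM in DMSO and 6.57 and 8.37 CPM in PMA (2.84 ± 0.40, adjusted p = 9.04e-05). Across the series each of the 8 PMA libraries had a higher LILRB1 CPM than each DMSO library. In shUHRF1 cells, with 2.71 and 4.14 CPM in DMSO and 7.02 and 11.2 CPM in PMA, the rise was 1.40 ± 0.36 (adjusted p = 0.00505) and was lost without shUHRF1 DMSO replicate 1 (adjusted p = 0.0552) or PMA replicate 2 (0.0584).

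LILRB2 divided the lines. In shUHRF1 cells it had 6.58 and 5.66 CPM in DMSO and 1.13 and 1.25 CPM in PMA, a log2 fall of -2.36 ± 0.29 (adjusted p = 1.95e-05). The shDNMT1 cells had 1.79 and 2.60 CPM in DMSO and 1.91 and 1.37 CPM in PMA, overlapping values (-0.41, 95% interval -1.03 to 0.22, adjusted p = 0.253). In shDNMT3B cells all 4 libraries lay between 2.04 and 2.22 CPM (0.02, interval -0.60 to 0.64, adjusted p = 0.966).

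LILRB4 rose in each of the 3 lines, where in shNC it did not pass. In shDNMT1 cells it had 34.4 and 41.1 CPM in DMSO and 177 and 138 CPM in PMA, a 4.18-fold rise (2.06 ± 0.18, adjusted p = 1.1e-06). The shUHRF1 cells went from 34.8 and 46.1 CPM to 89.6 and 77.9 CPM (1.05 ± 0.18, adjusted p = 0.000281). The shDNMT3B cells went from 29.4 and 30.3 CPM to 62.0 and 60.3 CPM (1.03 ± 0.18, adjusted p = 0.000462).

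LILRB3 had 0 to 6 counts in every DMSO library. In PMA it had 5.38 and 3.06 CPM in shUHRF1, 8.55 and 5.20 CPM in shDNMT1 and 7.37 and 6.24 CPM in shDNMT3B cells. It rose 24.3-fold in shUHRF1 cells (log2 4.60 ± 0.65) and was at least 88.3-fold higher in shDNMT3B cells. In shDNMT1 cells it stood at 270.1 times the DMSO level (counting interval 48.05 to 10711). LILRA6 had 1.30 and 1.53 CPM, 2.01 and 2.05 CPM, and 1.43 and 1.70 CPM in PMA in these lines. That is at least 19.5-fold, 25.4-fold and 19.9-fold above DMSO. LILRA5 had 12 counts in shDNMT3B PMA and 0 in DMSO, at least 4.88-fold higher with no test, and 8 against 4 in shDNMT1 and 4 against 2 in shUHRF1 cells.

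LILRA2 fell least in shDNMT1 cells. There it had 29.5 and 29.1 CPM in DMSO and 7.26 and 5.54 CPM in PMA, 4.55-fold lower (-2.19 ± 0.18, adjusted p = 5.33e-07). The shDNMT3B cells went from 42.7 and 35.7 CPM to 4.11 and 3.76 CPM (-3.31 ± 0.19, adjusted p = 2.92e-08). The shUHRF1 cells went from 48.4 and 44.6 CPM to 2.94 and 3.27 CPM (-3.90 ± 0.20, adjusted p = 5.87e-09). No PMA library of any line reached the lowest DMSO library.

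LAIR1 rose in shDNMT1 cells, from 184 and 151 CPM to 355 and 283 CPM (0.93 ± 0.21, adjusted p = 0.00273). In shDNMT3B cells it went from 209.8 and 166 CPM to 313 and 244 CPM (0.57 ± 0.21, adjusted p = 0.0433), a call lost without DMSO replicate 1 (0.0561), DMSO replicate 2 (0.222) or PMA replicate 1 (0.271). It was also lost with upper-quartile scaling (0.33, adjusted p = 0.233), with no filter (0.0964), with only the libraries compared (0.111) and with DEGES scaling and the exact test (0.0584). In shUHRF1 cells, with 169.5 and 131 CPM in DMSO and 218 and 203 CPM in PMA, it missed (0.49 ± 0.21, adjusted p = 0.0669) and passed with the block (0.50, adjusted p = 0.000502, 67.9% of all genes called) or without DMSO replicate 1 (0.0494). SIRPA rose in all of them, with 57.9 to 83.6 CPM in DMSO and 173 to 231 CPM in PMA over the 3 lines and log2 rises of 1.94 ± 0.18, 1.60 ± 0.18 and 1.32 ± 0.18 (adjusted p = 1.34e-06, 8.14e-06 and 5.4e-05). CD33, at 11.05 to 38.0 CPM in DMSO and 24.2 to 34.9 CPM in PMA, passed in none of them (-0.20, 0.24 and 0.52, adjusted p = 0.698, 0.649 and 0.334), save in shDNMT3B cells without DMSO replicate 2 (1.32, adjusted p = 0.0378).

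**Figure D4:**
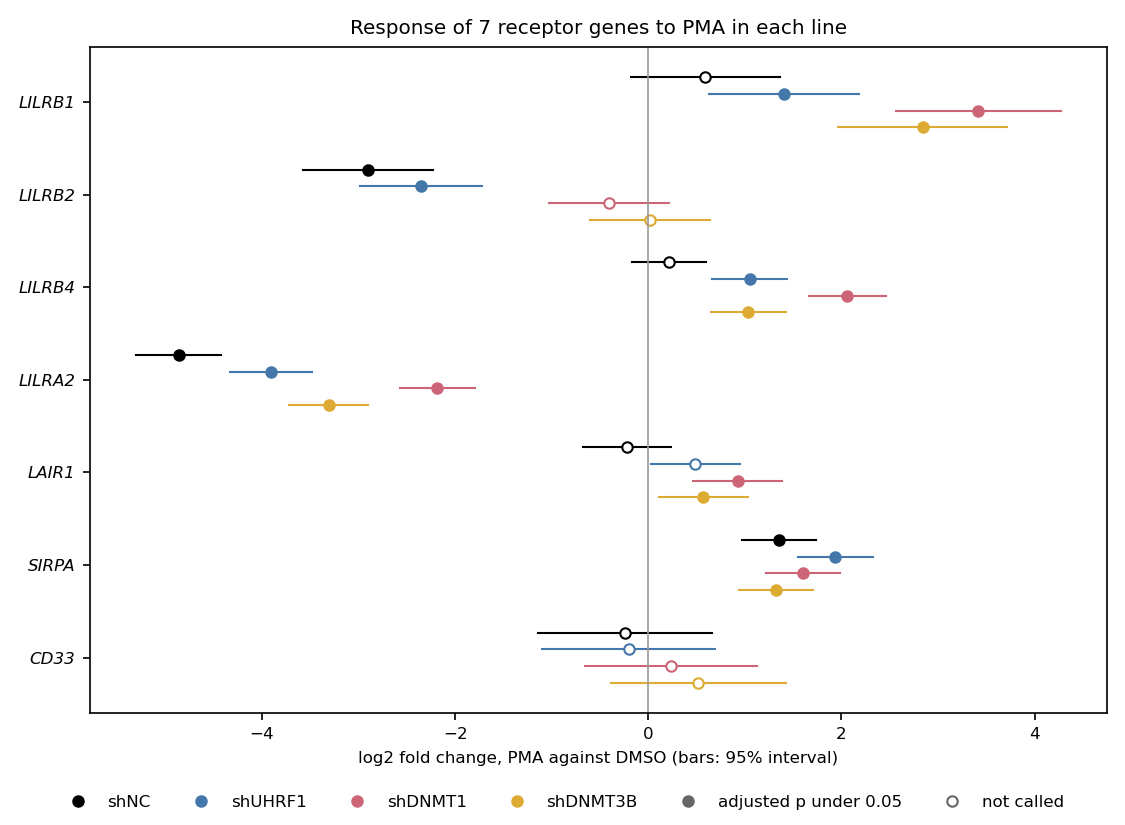
Points are log2 fold changes of PMA against DMSO in each line for the 7 receptor genes with counts in both treatments, bars are 95% intervals, and filled points have an adjusted p under 0.05. SIRPA lies between 1.32 and 1.94 in all 4 lines, while LILRB2 goes from -2.90 in shNC to 0.02 in shDNMT3B and LILRA2 from -4.86 in shNC to -2.19 in shDNMT1.

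The next comparison sets the lines against shNC in DMSO, before any PMA. LILRB1, LILRB2, LILRB4 and LILRA2 were lower in the cells labelled shDNMT1 and shDNMT3B, and LILRB4 and LILRA2 also in those labelled shUHRF1. No receptor was higher by edgeR, by DESeq2 or at an unadjusted p under 0.05. All of these comparisons share the 2 shNC libraries. In shDNMT1 and shDNMT3B cells 4 of 9 tested receptors fell, where 3.96% and 4.51% of all genes were called (0.57% and 1.62% up, 3.39% and 2.89% down). In shUHRF1 cells 2 fell, where 1.31% of all genes were called (0.17% up, 1.15% down). Over the 7 receptors above the floor the median log2 fold change was -0.32 in shUHRF1, -1.10 in shDNMT1 and -1.04 in shDNMT3B cells, against -0.04, -0.04 and -0.02 over all genes.

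LILRB4 had 77.3 and 84.8 CPM in shNC DMSO and no more than 46.1 CPM in any DMSO library of the other lines. It fell by 1.00 ± 0.18 on the log2 scale in shUHRF1 (adjusted p = 0.0144), 1.10 ± 0.18 in shDNMT1 (0.00324) and 1.44 ± 0.18 in shDNMT3B cells (0.000424). LILRA2 had 78.2 and 83.1 CPM in shNC and at most 48.4 CPM in the others. Its falls were -0.80 ± 0.16 (adjusted p = 0.0326), -1.46 ± 0.17 (0.000224) and -1.04 ± 0.17 (0.00291), and its 4 DMSO groups did not overlap one another, in the order shNC, shUHRF1, shDNMT3B, shDNMT1.

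The shUHRF1 calls did not hold with each library left out, in fits that leave 1 library in a group. With all libraries and the block both passed (adjusted p = 7.35e-05 for LILRB4 and 0.000192 for LILRA2), where 11.5% of all genes did. LILRB4 lost its call there without shNC replicate 1 (adjusted p = 0.0564) or 2 (0.0972) or shUHRF1 replicate 1 (0.204), and LILRA2 without any 1 of the 4 libraries (0.111 to 0.203). In shDNMT1 cells LILRB4 lost it only without shDNMT1 replicate 1 (0.0655), while LILRA2 there and both genes in shDNMT3B cells held their calls with each library left out.

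LILRB1 fell in shDNMT1 cells (1.30 and 1.40 CPM against 3.05 and 5.26 CPM in shNC, -1.61 ± 0.39, adjusted p = 0.0393) and in shDNMT3B cells (0.634 and 1.43 CPM, -2.0 ± 0.41, adjusted p = 0.0137). LILRB2 fell to a like extent, from 6.05 and 4.46 CPM in shNC to 1.79 and 2.60 CPM in shDNMT1 (-1.26 ± 0.27, adjusted p = 0.02) and 2.22 and 2.04 CPM in shDNMT3B cells (-1.30 ± 0.27, adjusted p = 0.0167). Neither group of values overlapped shNC. These 4 calls did not hold with each library left out either. LILRB1 lost its call without shNC replicate 2 (log2 -1.17 and -1.56), either shDNMT1 library (-1.56 and -1.67) or shDNMT3B replicate 1 (-1.54). LILRB2 lost it without shNC replicate 1 (-1.02 and -1.07), shDNMT1 replicate 1 (-1.01) or either shDNMT3B library (-1.37 and -1.25). With all libraries and the block the 4 calls passed (adjusted p = 0.000199 and 1.52e-05 for LILRB1, 0.00263 and 0.00147 for LILRB2). In shDNMT1 cells 13.6% of all genes did so.

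In shUHRF1 cells LILRB1 (2.71 and 4.14 CPM, -0.28, 95% interval -1.06 to 0.51) and LILRB2 (6.58 and 5.66 CPM, 0.22, interval -0.34 to 0.78) overlapped shNC (adjusted p = 0.82 and 0.793). Outside the LILR family no receptor passed in DMSO. LAIR1 differed from shNC by -0.32, -0.16 and 0.00 in the 3 lines and CD33 by 0.38, 0.11 and -0.49. SIRPA differed by -0.51, -0.39 and -0.16 (adjusted p = 0.208, 0.294 and 0.693) and passed with the block in shUHRF1 (-0.50, adjusted p = 0.0104) and shDNMT1 cells (-0.39, adjusted p = 0.0396), where 11.5% and 13.6% of all genes passed. LILRB3, LILRA5 and LILRA6 were at 0 to 7 counts per group.

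Without shNC DMSO replicate 1, the library with the red cell markers, some DMSO calls were lost. These were LILRB4 (log2 -1.07) and LILRA2 (-0.84) in shUHRF1 cells and LILRB2 in shDNMT1 (-1.02) and shDNMT3B cells (-1.07). The calls for PMA in shNC stayed. The share of all genes called is not given for this fit.

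The lines were compared with shNC under PMA as well. In shDNMT1 cells LILRB1, LILRB2, LILRB4 and LILRA2, all lower in DMSO, were then higher, as was LAIR1. Of 9 receptors 5 were thus higher and none lower, where 14.8% of all genes were called (8.5% up and 6.35% down). In shDNMT3B cells 2 were higher and 1 lower (20.3% of all genes, 11.3% up and 9.05% down). In shUHRF1 cells edgeR and DESeq2 called none (3.69% of all genes in edgeR, 2.04% up and 1.65% down). LILRB2 alone was under an unadjusted 0.05 there (log2 fold change 0.77, adjusted p = 0.276), and LAIR1 passed with the block (0.40, adjusted p = 0.0192, 15.2% of all genes called). The medians of the 9 receptors were 0.17, 0.74 and 0.25 in shUHRF1, shDNMT1 and shDNMT3B cells, against 0.02, 0.01 and 0.04 over all genes.

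In shDNMT1 cells under PMA, LILRB1 was at 13.3 and 15.8 CPM against 5.83 and 6.71 CPM in shNC, 2.32-fold higher (1.21 ± 0.35, adjusted p = 0.0344). LILRB4 was at 177 and 138 CPM against 101 and 87.5 CPM (0.74 ± 0.18, adjusted p = 0.0136). Both genes were higher there than in any other group of the series, with no overlap with the next group down. LILRA2, at 7.26 and 5.54 CPM against 3.10 and 2.38 CPM, was 2.32-fold higher (1.22 ± 0.20, adjusted p = 0.00115), which is still below every DMSO library. LILRB2 had 1.91 and 1.37 CPM against 0.736 and 0.650 CPM (1.24 ± 0.33, adjusted p = 0.0234), and LAIR1 355 and 283 CPM against 177 and 145 CPM (0.99 ± 0.21, adjusted p = 0.00781).

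Of these 5 calls, LILRA2 held with each library left out. LILRB1 lost its call without any 1 of the 4 libraries (adjusted p 0.0749 to 0.201), LILRB2 without shNC replicate 1 (0.11) or 2 (0.128) or shDNMT1 replicate 1 (0.164), LILRB4 without the same libraries (0.0521, 0.125 and 0.115), and LAIR1 without shNC replicate 2 (0.0869) or shDNMT1 replicate 1 (0.0702). The directions did not change.

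In shDNMT3B cells under PMA, LILRB2 at 2.11 and 2.20 CPM was 3.07-fold higher than in shNC (1.62 ± 0.32, adjusted p = 0.00416). This call held with each library left out. LAIR1 at 313 and 244 CPM was higher (0.79 ± 0.21, adjusted p = 0.0197), though not without shNC replicate 1 (0.0518) or 2 (0.154) or shDNMT3B replicate 1 (0.167). LILRB4 at 62.0 and 60.3 CPM was lower (-0.62 ± 0.18, adjusted p = 0.0261), a call lost without any 1 of the 4 libraries (0.0616 to 0.166). LILRB4 thus had opposite signs in the shDNMT1 and shDNMT3B lines under PMA, and their groups did not overlap, though this pair of lines was not tested against each other.

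The LILRB3 and LILRA6 genes switched on by PMA did not pass in any line against shNC. LILRB3 differed by -0.82, -0.12 and -0.14 (adjusted p = 0.416, 0.912 and 0.86) and LILRA6 by -0.73, -0.21 and -0.58 (0.436, 0.802 and 0.35), with intervals that reach from -1.82 to 0.85 for LILRB3. SIRPA differed by 0.08, -0.14 and -0.19, and its widest interval runs from -0.57 to 0.18. CD33 differed by 0.43, 0.59 and 0.28.

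**Figure D5:**
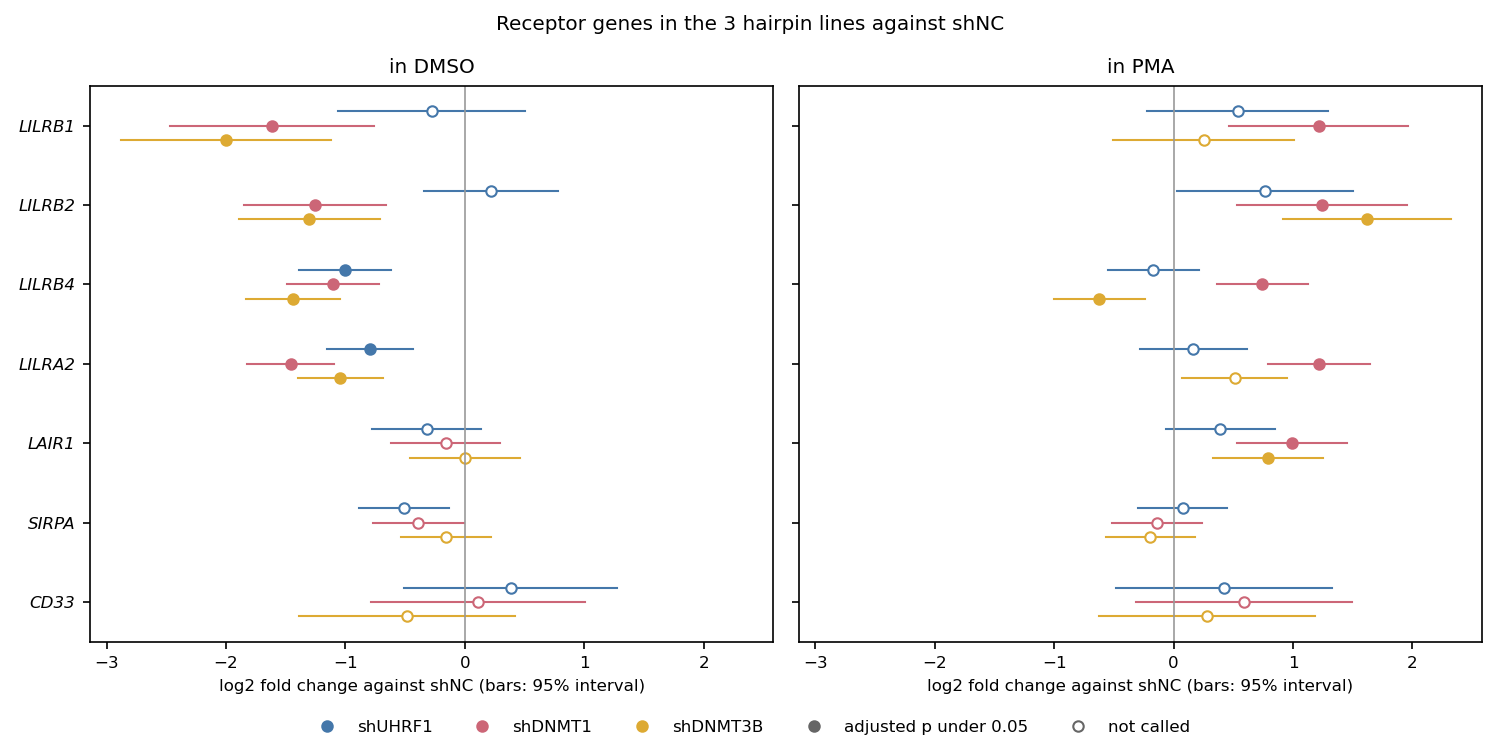
Points are log2 fold changes of the shUHRF1, shDNMT1 and shDNMT3B lines against shNC in DMSO (left) and in PMA (right) for 7 receptor genes, with 95% intervals and filled points at an adjusted p under 0.05. In shDNMT1 cells LILRB1 lies at -1.61 in DMSO and 1.21 in PMA, and LILRA2 at -1.46 and 1.22.

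The difference between the PMA response of a line and that of shNC was tested directly as an interaction. It passed for 5 receptors in shDNMT1 cells, all with a higher response, where 6.71% of all genes were called (5.64% up and 1.07% down), and for 3 in shDNMT3B cells, also higher (6.77%, 5.08% up and 1.7% down). In shUHRF1 cells edgeR and DESeq2 called none of the 9 (0.848% of all genes in edgeR, 0.739% up and 0.109% down), with LILRB4, LILRA2, LAIR1 and SIRPA under an unadjusted p of 0.05. These 4 passed with the block, at 0.83 (adjusted p = 0.0134), 0.96 (0.0194), 0.73 (0.00601) and 0.58 (0.0381), where 8.48% of all genes were called. The median over 7 receptors was 0.71 in shUHRF1, 1.85 in shDNMT1 and 0.82 in shDNMT3B cells, against 0.06, 0.06 and 0.07 over all genes. Since the same shNC libraries serve all 3 lines, the values stand side by side and are not independent of each other.

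In shDNMT1 cells the log2 response exceeded that of shNC by 2.83 ± 0.53 for LILRB1 (adjusted p = 0.00536), 2.68 ± 0.26 for LILRA2 (5.26e-05) and 2.50 ± 0.43 for LILRB2 (0.00306). LILRB4 exceeded it by 1.85 ± 0.25 (0.000698) and LAIR1 by 1.15 ± 0.30 (0.0373). By their estimates this was a larger rise for LILRB1 and LILRB4, which did not pass in shNC, and a smaller fall for LILRA2 and LILRB2. The LILRB2 fall in shDNMT1 cells did not pass itself (-0.41, adjusted p = 0.253). LILRB1, LILRA2, LILRB2 and LILRB4 were each lower than shNC in DMSO and higher in PMA, and both enter the difference. The first 3 and LILRB4 passed with each library left out, whereas LAIR1 lost its call without any library but shDNMT1 PMA replicate 2 (0.0619 to 0.154).

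In shDNMT3B cells LILRB2 exceeded the shNC response by 2.92 ± 0.42 (adjusted p = 0.00111), LILRB1 by 2.25 ± 0.54 (0.0235) and LILRA2 by 1.55 ± 0.26 (0.00298). For LILRB1 most of this lay in DMSO, where it differed from shNC by -2.0, against 0.25 in PMA (adjusted p = 0.655). LILRA2 differed by -1.04 in DMSO and 0.51 in PMA (adjusted p = 0.0966), and LILRB2 by -1.30 and 1.62. LILRB2 and LILRA2 passed with each library left out, and LILRB1 lost its call without 5 of the 8 libraries (0.0626 to 0.0959). LILRB4 (0.82, adjusted p = 0.0738) and LAIR1 (0.79, 0.152) passed with the block (0.00705 and 0.000916), where 19.5% of all genes were called. SIRPA differed by 0.25 (interval -0.28 to 0.78) in shDNMT1 and -0.03 (-0.56 to 0.50) in shDNMT3B cells and CD33 by 0.48 and 0.76, none called. LILRB3 had intervals too wide to place (-2.93 to 4.37 in shDNMT1 cells), and with no DMSO count LILRA6 gave no estimate.

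The order of the 8 groups differed from gene to gene. Levels are means of the 2 libraries, and groups are called separate where their libraries do not overlap. For LILRA2 shNC DMSO stood first at 80.7 CPM, and from the first to the seventh group each group was separate from the next, down to 3.11 CPM in shUHRF1 PMA and 2.74 CPM in shNC PMA, which overlapped. For LILRB1 shDNMT1 PMA led alone at 14.5 CPM, then came the other PMA groups, each overlapping its neighbour, then shNC and shUHRF1 DMSO together and, separate from those, shDNMT1 and shDNMT3B DMSO. For LILRB2 shUHRF1 DMSO and shNC DMSO led together at 6.12 and 5.26 CPM, with shDNMT1 DMSO, shDNMT3B PMA and shDNMT3B DMSO next at 2.13 to 2.20 CPM and the other PMA groups below, each separate from its neighbours.

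For LAIR1 only the shDNMT1 and shDNMT3B PMA groups, at 319 and 278 CPM, stood apart from the rest, and neighbours below them overlapped down to 150.4 CPM in shUHRF1 DMSO. For SIRPA each PMA group overlapped its neighbour in the order, and the 4 stood apart from the 4 DMSO groups. For CD33 no neighbouring groups were separate, from 35.1 CPM in shUHRF1 DMSO to 19.2 CPM in shDNMT3B DMSO. Some spread followed the replicate number: LILRB1 was higher in replicate 2 in 8 of 8 groups (1.08 to 2.25 times), CD33 in 7 of 8 (0.954 to 2.47 times), and LAIR1 was lower in replicate 2 in 8 of 8 (0.774 to 0.932 times).

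The genes whose mean log2 CPM over the 8 groups was most like each receptor are given as a description by Pearson's r over 8 groups, which share a depth difference and the split into DMSO and PMA. LILRB1 was most like APOL3 (0.985), SPTLC2 (0.984) and the immunoproteasome gene PSMB9 (0.983). LILRB2 was most like GALNT12 (0.993), GOLGA8T (0.977) and ZNF876P (0.963), and LILRB4 like TRIOBP (0.994), the protein kinase C gene PRKCB (0.982) and GUCD1 (0.979). For these genes and for LAIR1 (SYNGR1 0.959, CLSTN3 0.955, TIFAB 0.954) and CD33 (MCEE 0.966, TANC1 0.946, KLHL36 0.944) few genes came that close, 1 to 46 with r above 0.95.

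The genes that split by treatment had many likenesses, 604 to 1810 each. LILRA2 was closest to GNA14 (0.995), SYNE3 (0.995) and WNT10A (0.993), LILRB3 to DNM1P35 (0.998), PRKAR1B-AS1 (0.997) and CD83 (0.995), LILRA6 to LINC01010, MITF and DUSP1 (0.999 each), and SIRPA to MICALL1 (0.998), FURIN (0.997) and the complement receptor gene C3AR1 (0.997). Among the receptors themselves LILRB3 and LILRA6 were most alike (0.992), and LILRA2 ran most against LILRA6 (-0.958).

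The other LILR genes were mostly silent. LILRA1, an activating gene, had 4.26 and 5.21 CPM in shNC DMSO and 0.158 and 0.144 CPM in shNC PMA, a fall of 4.90 ± 0.45 on the log2 scale (adjusted p = 1.37e-06). It was lower in shDNMT1 cells in DMSO (-1.29, adjusted p = 0.0436) and higher in PMA (0.717 and 1.44 CPM, 2.74 ± 0.50, adjusted p = 0.00284), and its response exceeded that of shNC by 4.02 (adjusted p = 0.0012). LILRA1 thus had the signs of LILRA2 in these comparisons, but its shNC PMA level lay near the floor of 0.0912 CPM. The sizes of its fall and of the differences that use that group are open to counting error. LILRA4 had 0 to 4 counts per library and LILRB5 0 to 3, and LILRA3 had no entry in the table.

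Counts of genes called in the other lists for PMA in shNC stand beside 54.4% called over all genes, 28.4% up and 26% down (67.1% with the block). Other ITIM receptors of myeloid cells moved both ways: of 14 tested genes (19 in the list) 6 rose and 3 fell, with a median log2 fold change of 0.86. CD22, a sialic acid receptor best known from B cells, went from 0.0526 and 0.106 CPM to 144 and 127 CPM. Its DMSO level was near the floor of 0.0793 CPM, and it passed the filter only through the PMA libraries, so it had to differ. The inhibitory Fc receptor gene FCGR2B rose from 2.37 and 2.07 CPM to 14.2 and 8.59 CPM (2.36 ± 0.32, adjusted p = 4.55e-05), and CD72 rose by 1.52 ± 0.26 (0.000291). CLEC12A fell, from 1.79 and 1.59 CPM to 0.21 and 0.0722 CPM (-3.44 ± 0.59, adjusted p = 0.000303). Its PMA level was near the floor of 0.0912 CPM, so the size of the fall is open to counting error. In shDNMT1 cells against shNC 3 of the 14 were lower in DMSO (3.39% of all genes), and 4 of 14 with the block (13.6% of all genes in either direction). In PMA 6 were higher and 1 lower (8.5% and 6.35% of all genes), and 7 and 2 of 14 with the block. The blocked share over all genes is not given for this PMA comparison, so these blocked counts cannot be set against it. In shDNMT3B cells under PMA CD72 (0.81, adjusted p = 0.0301) was also higher than in shNC and CD22 (-0.71, 0.0217) lower. Of other genes in the list, named after their values were seen, CD300A (4.07, 1.56e-05), SIGLEC11, PECAM1 and MILR1 were higher there. PILRA and SIGLEC7 were lower, where 11.3% of all genes were called up and 9.05% down. In shUHRF1 cells under PMA CD300A (2.14, adjusted p = 0.00499) and SIGLEC11 (1.59, 0.0262) were higher, where 2.04% of all genes were.

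Activating paired receptors (13 of 16 tested) had 7 up and 1 down with PMA in shNC, and 7 up and 3 down with the block. SIRPB1, the activating relative of SIRPA, fell from 66.4 and 48.95 CPM to 3.26 and 4.33 CPM (-3.93 ± 0.23, adjusted p = 2.48e-08), while SIRPA rose. FCAR, the IgA receptor gene in the same gene complex, rose from 0.684 and 1.59 CPM to 27.3 and 31.8 CPM (4.69 ± 0.43, adjusted p = 1.42e-06). SIGLEC15 (2.96 ± 0.26, adjusted p = 1.01e-06) and CD300LB (2.27 ± 0.30, 3.81e-05) rose too.

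Ligands of the receptors (16 of 23 tested) had 10 up and 3 down (11 and 5 with the block), with a median of 1.77. HLA-E rose from 119 and 134 CPM to 996 and 833 CPM (2.85 ± 0.20, adjusted p = 9.96e-08), and APOE, a ligand of LILRB4, from 3.89 and 3.72 CPM to 275 and 204 CPM (5.97 ± 0.41, 8.74e-08). FN1 rose from 0.158 and 1.28 CPM to 82.0 and 124 CPM (7.16 ± 0.63, adjusted p = 9.51e-07) and COL1A1, a collagen gene, from 0.894 and 0.691 CPM to 5.05 and 5.20 CPM (2.68 ± 0.27, 3.35e-06). The size for FN1 is open to counting error, since its first DMSO library was near the floor of 0.0793 CPM. CD47, the ligand of SIRPA, named after its values were seen, had 73.5 and 48.1 CPM in DMSO and 42.7 and 33.1 CPM in PMA (-0.68 ± 0.32, adjusted p = 0.0892), and passed with the block (-0.67, adjusted p = 0.0001). In DMSO HLA-E was lower in shDNMT1 than in shNC cells (-0.99 ± 0.19, adjusted p = 0.0092).

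Downstream of the ITIMs, 8 of 15 phosphatase, kinase and adaptor genes rose with PMA in shNC and 4 fell (8 and 5 with the block). The SRC family kinase genes FGR (3.47 and 2.55 CPM to 93.1 and 104 CPM, 5.02 ± 0.24, adjusted p = 3.49e-09) and FYN (2.22 ± 0.20, 8.93e-07) rose, and FES, another tyrosine kinase gene, fell (86.9 and 123 CPM to 5.31 and 6.86 CPM, -4.11 ± 0.24, 2.48e-08). SOCS3, a feedback inhibitor of cytokine signalling, rose from 2.26 and 2.34 CPM to 28.4 and 28.9 CPM (3.63 ± 0.28, adjusted p = 2.58e-07). PTPN6, the phosphatase gene most tied to these receptors and named after its values were seen, rose from 104 and 118 CPM to 241 and 270 CPM (1.20 ± 0.15, adjusted p = 1.65e-05). In shDNMT1 against shNC cells under PMA 4 of the 15 were higher (8.5% of all genes), among them FES (1.79 ± 0.23, adjusted p = 0.000228), and 3 lower (6.35% of all genes), among them SOCS3 (-2.39 ± 0.26, 6.55e-05). With the block 8 were higher and 3 lower, and the blocked share over all genes is not given for this comparison. In shDNMT3B cells under PMA FES (2.05 ± 0.23, adjusted p = 8.52e-05) was likewise higher than in shNC and SOCS3 (-2.31 ± 0.26, 8.47e-05) lower.

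All 9 ITAM adaptors and effectors were called with PMA in shNC, 5 up and 4 down, where 54.4% of all genes were called (28.4% up and 26% down). TYROBP, the adaptor of many activating receptors, rose from 135 and 83.7 CPM to 680 and 462 CPM (2.38 ± 0.45, adjusted p = 0.000669), and LCP2 rose by 1.21 ± 0.16 (3.14e-05). CARD9 (-1.95 ± 0.20, adjusted p = 2.92e-06) and PLCG2 (-1.11 ± 0.13, 1.65e-05) fell. The neighbours of the LILR genes in the leukocyte receptor complex (14 of 22 tested) had 3 up and 4 down with PMA in shNC, and 6 up and 6 down with the block, with a median of 0.11. OSCAR (1.70 ± 0.39, adjusted p = 0.00277) and MBOAT7 (1.67 ± 0.21, 2.48e-05) rose with FCAR, and RDH13 fell (-0.80 ± 0.18, 0.00259). In DMSO 1 of these 14 neighbours was lower in each of the lines in which the 4 LILR genes were lower, OSCAR in shDNMT1 and MBOAT7 in shDNMT3B cells, with medians of -0.02 and -0.01. Over all genes 3.39% and 2.89% were lower in these lines. With the block LENG8, named after its values were seen, was higher in both lines (0.76 and 0.43, adjusted p = 0.000357 and 0.0274). In shDNMT1 cells 13.6% of all genes were called with the block.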

How the data were processed

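RNA of 16 THP-1 libraries, 2 per group in 8 groups, was prepared with a stranded poly(A) kit. Per the labels and the study's methods, the authors aligned reads to hg38 with STAR 2.4.0b and counted them per gene with HTSeq 0.6.1p1, and the deposited values are raw counts. Annotation and strand setting are not given in the sources used here. Columns were assigned by the condition in their names, since the free-text description differed from the title in 12 of 16 samples.

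Counts were scaled with TMM factors, filtered (minimum count 10, minimum total 15), and fitted over 16 libraries with edgeR 4.0.16 (R 4.3.3, limma 3.58.1, robust quasi-likelihood, prior count 2) for 13 comparisons, with Benjamini-Hochberg adjustment over 16503 genes. The common dispersion was 0.0439 on 8 residual degrees of freedom, and 0.0115 on 7 with the replicate block. The procedure was tested on simulated data for PMA against DMSO in shNC with 15154 genes: it recovered 4% of genes changed 1.5-fold, 30% at 2-fold, 86% at 4-fold and 96% at 8-fold, with 8 of 116 calls false. Only 50 genes were changed at each fold and no replicate effect was simulated, while 54.4% of genes were called in the real comparison. These rates of recovery and of false calls therefore need not hold for the data. Deviations of same-numbered libraries correlated in 28 of 28 pairs of groups (r 0.220 to 0.508), so replicate numbers pair libraries and blocked values are given where they change a call of a receptor, and blocked counts where they change a count of another list. Alternatives were DESeq2 1.42.0, upper-quartile scaling, DEGES scaling with the exact test, no filter, only the libraries compared and each library left out. Sequences and tables were handled with Python 3.11.15, pandas 2.3.3, NumPy 2.4.6, SciPy 1.17.1 and Biopython 1.88, and symbols came from GENCODE 44 (60357 matched).

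The receptors, gene lists and marker lists were chosen with earlier results of these data known. Genes named are the 10 receptors, up to 4 genes per other list with the smallest adjusted p for PMA in shNC, each other LILR gene, 3 most alike genes per tested receptor, and the hairpin targets. The wild-type THP-1 libraries of the study are not used here, and 1 marker gene is not reported here.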

Additional observations from a re-analysis of the deposited data

Results flagged for a closer look

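The PMA response of a labelled line differed from that of shNC in 8 tests of the difference itself. In shDNMT1 cells the log2 response was higher by 2.83 for LILRB1, 2.50 for LILRB2, 1.85 for LILRB4, 2.68 for LILRA2 and 1.15 for LAIR1. In shDNMT3B cells it was higher by 2.25 for LILRB1, 2.92 for LILRB2 and 1.55 for LILRA2. Each passed an adjusted p of 0.05 in edgeR's interaction test. A higher response can hold a lower level in DMSO, a higher level in PMA, or both. LILRB1 in shDNMT3B cells differed from shNC by -2.0 in DMSO and 0.25 in PMA (adjusted p = 0.655). All 8 compare with the same 4 shNC libraries, and groups of 2 libraries are too small to test for a single library far from the others.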

How the results depend on the processing

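No receptor changed direction under an alternative where it was called. Fitting only the libraries compared left 0, 1 and 1 receptors called in DMSO in shUHRF1, shDNMT1 and shDNMT3B cells, with fewer libraries to set the spread. It also lost LILRB2 in shDNMT1 cells under PMA (adjusted p = 0.0897). The response differences of LAIR1 in shDNMT1 cells (0.0668) and LILRB1 in shDNMT3B cells (0.0658) were lost there too. DEGES scaling with the exact test, which was not run for differences of responses, left 1 receptor called in DMSO in shUHRF1 cells (LILRA2 lost, 0.162). DEGES also lost LILRB2 in shDNMT1 cells in DMSO (adjusted p = 0.0575) and LAIR1 for PMA in shDNMT3B cells (0.0584) and gained CD33 in shDNMT1 cells under PMA (0.63, 0.0282). DESeq2 gained the LILRB4 response difference in shDNMT3B cells (0.79, 0.0448). With the replicate block 1 receptor was called in shUHRF1 cells under PMA, and 4 and 5 response differences in shUHRF1 and shDNMT3B cells. It lost no receptor call and changed no other receptor call than those given beside their values. Upper-quartile scaling put the median of all genes at -0.285, -0.312, -0.254 and -0.219 for PMA in shNC, shUHRF1, shDNMT1 and shDNMT3B cells, and changed 3 of 117 calls: LAIR1 for PMA in shDNMT3B cells (0.33, adjusted p = 0.233) and LILRB4 in shDNMT3B cells under PMA (-0.49, 0.0624) were lost, and LILRA2 there was gained (0.64, 0.0439). Leaving out each library in turn gave 5 to 5, 6 to 7, 7 to 7 and 6 to 8 calls for PMA in shNC, shUHRF1, shDNMT1 and shDNMT3B cells. It gave 0 to 1, 1 to 3 and 2 to 3 calls in DMSO for shUHRF1, shDNMT1 and shDNMT3B cells, 0 to 0, 1 to 4 and 1 to 2 under PMA, and 0 to 0, 4 to 5 and 2 to 3 for the response differences. Where 1 library was left in a group, it was assumed to vary like the other groups. The share of all genes called is not given for these fits or for those with only the libraries compared. Their counts of calls are therefore no result about the receptors. Without TMM factors the levels moved to 7.13 CPM for LILRB2 in shUHRF1 DMSO, 89.2 for LILRA2 in shNC DMSO, 206 for SIRPA in shUHRF1 PMA and 41.8 for CD33 in shUHRF1 DMSO. Counts under the floor in DMSO leave the sizes for LILRB3, LILRA5 and LILRA6 open to counting error.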
